A study of Equus caballus with 6 samples.

Results

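The brightest transcript signals of normal horse lamellae were described from the 3 arrays labelled normal, right foot, which carry the replicate numbers 2, 3 and 4. A probe set, the group of probes that reads a transcript, was taken as a member when its signal lay above the 99th percentile of the non-control probe sets of the same array on each of the 3 arrays. This gave 191 of 24016 non-control probe sets, or 0.795%. They carried 142 distinct gene symbols of the 9155 on the array, or 1.55%. The series holds 6 arrays, and the 3 laminitis arrays were not used. The normal group is defined by tissue and health state alone, since breed, age, housing and whether the samples came from separate horses are not stated in the labels. No treatment is named, and the array design is bovine while the RNA is equine. The signals themselves chose the members, so their height is a description and carries no test.

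Lamellae are interlocking leaves of epidermis and dermis, and through them the coffin bone hangs within the hoof capsule. Its epidermal side is built by keratinocytes, which hold together through keratin filaments and desmosomes, and a basement membrane joins it to a dermis of collagen, fibroblasts, vessels and nerves. In most tissues the transcripts of the ribosome, of translation and of the cytoskeleton are among the most abundant messages. On an array such a ranking also depends on the probes. Here a bovine probe set that mismatches the horse sequence reads low, so a signal is the brightness of a probe set and not a count of transcripts, and a missing gene is not shown to be silent.

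The trimmed mean, over the probe sets left after 2% were removed at each end, lay between 150.02 and 150.024 on the normal arrays. Their medians lay between 92.6 and 96.6, and precision is limited by how many arrays there are. The 99th percentile was 2122 on replicate 2, 2052 on replicate 3 and 2493 on replicate 4, so the bright end stood higher on replicate 4. The hybridisation spike-in BioD, a bacterial control added in fixed amount, read 5603, 5225 and 7167 by its 3′ probe set on replicates 2, 3 and 4, and was also highest on replicate 4. The ratio of the 3′ to the 5′ control of GAPDH, a sign of RNA length, was 6.87, 5.51 and 6.80, and that of actin was 6.25, 2.08 and 4.24. These controls are bovine too, so a mismatch with the horse sequence at either end would also move the ratios. The members held 23.2%, 22.8% and 24.7% of the summed signal of the non-control probe sets. In what follows, 3 values in a row are the signals on replicates 2, 3 and 4, in that order, in the authors' linear intensity units.

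The highest signal on the dimmest of the 3 arrays belonged to a probe set annotated CSN2, beta-casein, a milk protein, at 29122, 26643 and 36018 (mean 30594 ± 4858 SD, n = 3). EEF1A1, the elongation factor that brings aminoacyl-tRNA to the ribosome, followed at 18128, 17364 and 18999 (mean 18164 ± 818 SD, n = 3). TPT1, a translationally controlled calcium-binding protein, read 16644, 15577 and 17228. The spread between arrays was small against these levels.

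Ribosomal proteins gave 6 of the 10 named genes with the brightest dimmest array. RPS27 read 15619, 15267 and 17570, and RPL5, which carries 5S RNA into the large subunit, read 15075, 16705 and 16395. RPS3A stood at 16943, 14689 and 19755 (mean 17129 ± 2539 SD, n = 3), and RPS4Y1 at 14212, 14569 and 15500. RPL24 read 14532, 14090 and 16313, and RPL30 read 14002, 13777 and 15063. The remaining gene of the 10 was CDK5R1, an activator of the neuronal kinase CDK5, with a probe set at 15189, 14900 and 17806. Each of the 10 was lowest on replicate 2 or 3.

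**Figure D1:**
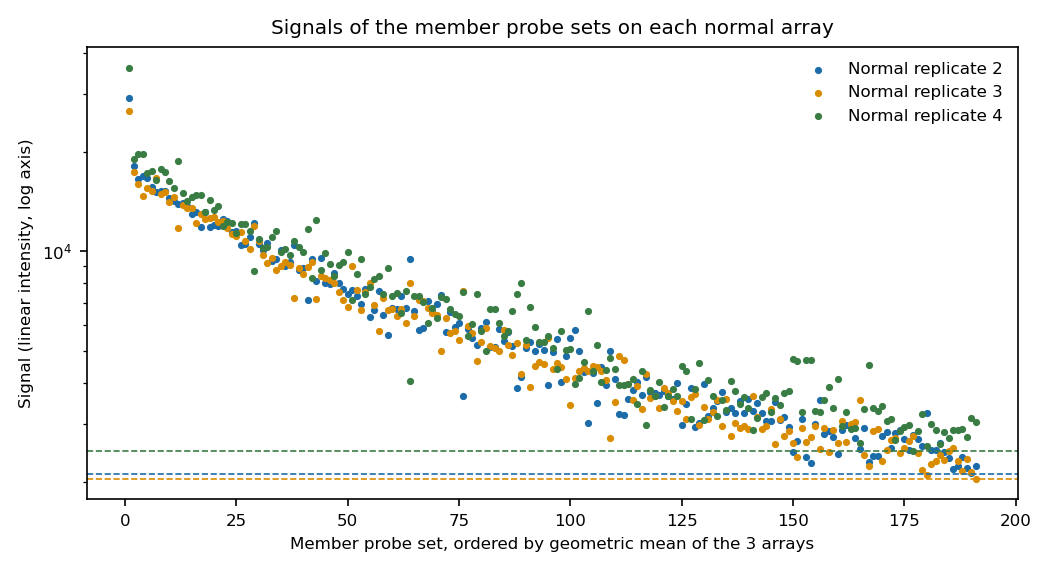
Signal of each of the 191 member probe sets (vertical log axis, linear intensity) on normal replicates 2, 3 and 4, ordered by geometric mean. Points are single arrays, dashed lines the 99th percentile of each array (2122, 2052 and 2493), and the points of replicate 4 are the highest for 131 of the probe sets on the deposited scale.

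Cytosolic ribosomal proteins, which build both subunits of the ribosome, made up the largest group of members. Of 68 genes of this list with a probe set, 42 were members, or 61.8%, against 1.55% of all named genes on the array. The large subunit gave 24 of them, among them RPL3 and RPL4, the scaffold of the subunit, and RPLP0, the base of its stalk. RPL4 read 9292, 9119 and 9761, RPL3 read 6630, 6858 and 8238, and RPLP0 read 13005, 13507 and 14657 by its brighter member probe set. The small subunit gave 18, among them RPS6, a target of growth-factor kinases, at 6081, 5402 and 6380, and RPS3, at the messenger RNA entry site, at 6596, 6350 and 7315. The median ratio of the highest to the lowest array over the 42 was 1.15.

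The other 26 ribosomal genes were not dim as a rule. FAU, RPL18 and RPL8 lay just under the rule, RPL8 at 2333, 1993 and 2295. Some probe sets were far lower, as for RPS19 at 74.0, 39.4 and 15.2 and for RPL37 at 10.9, 59.9 and 13.4. Both belong to the same particle as the members, yet they sat below the array medians. In all, 66 of the 68 genes lay above the median of every array, against 5093 of all 9155 named genes. Several ribosomal genes have near-identical copies, and RPS4Y1 and RPL15P are names whose probe sets may read such copies.

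Translation factors and proteins at the nascent chain added 11 of 55 genes, or 20%, against 1.55% of all named genes. EEF1A1 and TPT1 were the brightest of them. EIF4A2, a helicase that unwinds messenger RNA leaders, read 7642, 9010 and 7108, and NACA, which shields the emerging chain, read 6930, 6626 and 9471. The initiation factors EIF1, EIF3H, EIF3K and EIF5, the elongation factor subunit EEF1G, the ribosomal scaffold RACK1 and the poly(A)-binding protein PABPC1 were the others. None of the 11 differed by more than 2-fold between arrays.

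**Figure D2:**
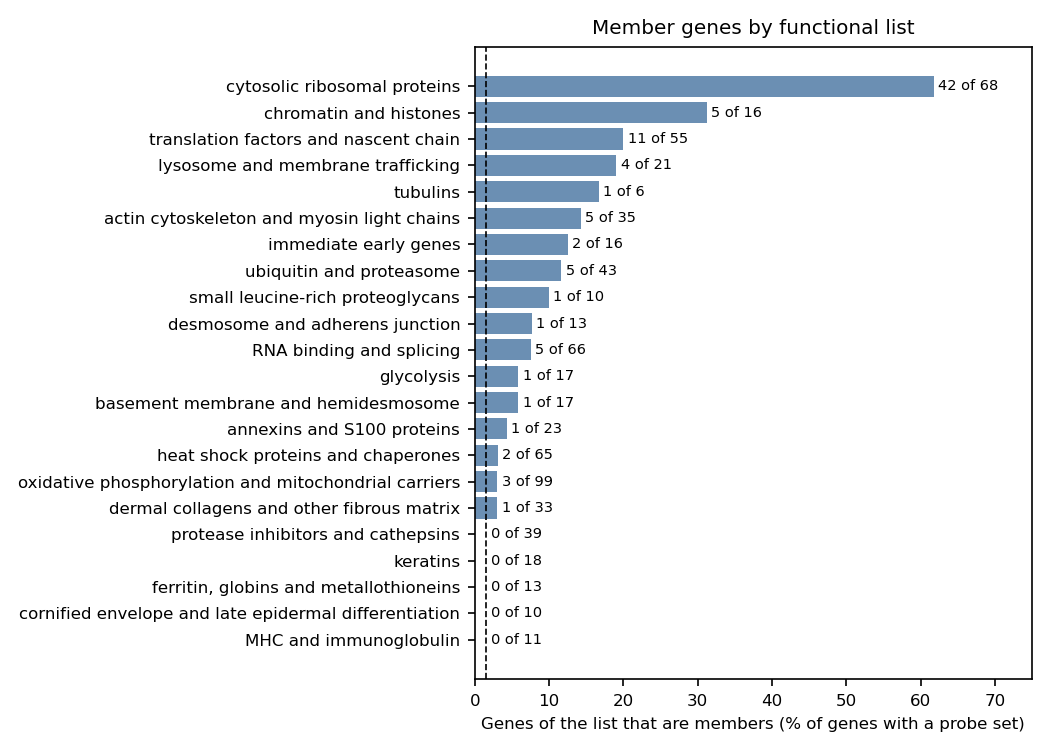
Share of the genes of each functional list that are members (horizontal axis, percent of genes with a probe set), with the counts beside each bar. The dashed line is the share over all named genes, 1.55%, and ribosomal proteins stand at 42 of 68 genes.

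Nuclear proteins formed a smaller block. Of 16 chromatin genes 5 were members, against 1.55% of all named genes. They were the variant histones H3-3A, H3-3B and H2AZ1, the acidic nuclear protein PTMA and the nucleolar protein NCL. PTMA read 10541, 10724 and 12073, H3-3A read 7060, 6753 and 6052, and H3-3B, which encodes the same histone, read 7378, 4995 and 7278. The replicates overlapped closely for PTMA, while H3-3B was low on replicate 3.

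RNA-binding and splicing genes gave 5 of 66, or 7.58%, against 1.55% of all named genes. They were DDX5, YBX1, HNRNPK, HNRNPU and SNRPG. DDX5, a helicase of splicing and transcription, read 7599, 5723 and 8435, and YBX1, which packages messenger RNA, read 2973, 3513 and 4491. SNRPG, a core protein of the spliceosome, read 3758, 3600 and 3804, and HNRNPK read 3236, 3013 and 3766. Replicate 3 was the dimmest for 4 of the 5, and replicate 2 for YBX1.

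The ubiquitin and proteasome list gave 5 of 43 genes, or 11.6%, against 1.55% of all named genes. The 20S core subunits PSMA3, PSMA6 and PSMA7, the lid subunit PSMD11 and the ubiquitin-conjugating enzyme UBE2D3 were members, with UBE2D3 at 5022, 4566 and 5309 and PSMA6 at 5007, 4353 and 4145. Chaperones gave 2 of 65, or 3.08%, against the same 1.55%. HSPA5, the main chaperone of the endoplasmic reticulum, read 5597, 6647 and 8915, and HSPB1, a small heat shock protein abundant in keratinocytes, read 9486, 8003 and 4062. These chaperones ran in opposite directions over the arrays, HSPA5 highest and HSPB1 lowest on replicate 4.

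Of 99 oxidative phosphorylation and carrier genes 3 were members, or 3.03% against 1.55% of all named genes, namely the adenine nucleotide carrier SLC25A5 at 5367, 5793 and 5526, the ATP synthase subunit ATP5F1A and the cytochrome oxidase subunit COX6A1. Of 17 glycolytic genes 1 was a member, or 5.88%, against the same 1.55%. It was LDHB, a lactate dehydrogenase subunit, at 3230, 2101 and 2569. GAPDH lay just under the rule, at 2114, 2193 and 2073. The annexin and S100 list gave 1 of 23 genes, or 4.35%, against the same 1.55%. That gene was ANXA2, a membrane-binding annexin, at 3214, 4829 and 3932.

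Of 35 actin cytoskeleton genes 5 were members, or 14.3%, against 1.55% of all named genes. CNN3, an actin-binding calponin of non-muscle cells, read 9501, 9295 and 8290, and MYL12A, a regulatory light chain of non-muscle myosin, read 4031, 3908 and 3461. TMSB10, which binds actin monomers, read 3201, 4691 and 3941, PFN1, which exchanges nucleotide on actin, read 3287, 3656 and 2869, and ARPC2, a subunit of the branching Arp2/3 complex, read 3076, 3105 and 3423. The spread over arrays of these 5 had a median ratio of 1.16. TUBA1A, an alpha tubulin, read 2517, 3546 and 2636. It was 1 member among 6 tubulin genes, or 16.7%, against the same 1.55%.

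The 4 lists of junctions, fibrous matrix, small proteoglycans and basement membrane gave 1 member each, between 3.03% and 10% of their genes, against 1.55% of all named genes. CTNNB1, beta-catenin, which links cadherins to actin and carries Wnt signals, read 12534, 12374 and 11949 and was the member among 13 junction genes. VIM, the intermediate filament of mesenchymal cells, read 7144, 8945 and 11654 and was the member among 33 dermal matrix and fibroblast genes. ASPN, asporin, a collagen-binding proteoglycan, read 4160, 4259 and 8018 and was the member among 10 of its family. LAMC1, the gamma chain of most laminins, read 2128, 2151 and 3123 and was the member among 17 basement membrane genes. It rests on 1 of 6 LAMC1 probe sets, at 1.00 times the 99th percentile on its dimmest array. The brightest of the others read 390, 300 and 415. CTNNB1 differed little between arrays, whereas VIM, ASPN and LAMC1 were all highest on replicate 4 on the deposited scale.

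The trafficking list gave 4 of 21 genes, or 19.0%, against 1.55% of all named genes. ITM2B, a membrane protein, read 3184, 3110 and 4066, and LAPTM4A, a lysosomal protein, read 3159, 2767 and 3731. The Golgi GTPase ARF4 read 2437, 2623 and 4107, and the translocon subunit SEC61B read 2236, 2052 and 3052. Of 16 immediate early genes 2 were members, or 12.5%, against the same 1.55%. BTG1, an antiproliferative factor, read 6725, 6085 and 7600, and KLF4, a transcription factor of the epidermal barrier, read 2863, 2470 and 3889. All 6 were highest on replicate 4 on the deposited scale. The lists of keratins (18 genes), cornified envelope (10), ferritin with globins and metallothioneins (13), MHC with immunoglobulin (11), and protease inhibitors with cathepsins (39) gave 0 members each. At 1.55% of named genes, lists of these sizes would hold less than 1 member, so the zeros are near the background. The lists with 1 member are no larger than the largest of these, so a single member there says little.

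Outside the lists stood 51 member genes, and 41 of them were put into groups after their values were seen. Of these, 7 act at the cell surface or in the matrix. THBS4, a thrombospondin of tendon and other connective tissue, read 10436, 7226 and 10741, and THBS1, an adhesive glycoprotein that activates latent TGF-beta, read 8148, 7183 and 12413. SDC2, a heparan sulphate proteoglycan, read 3862, 5283 and 7411, and IGFBP7, a secreted binding protein, read 5082, 5194 and 5373. The thrombospondins were lowest on replicate 3, and IGFBP7 was nearly level. GJA1, connexin 43, the main gap junction protein of skin, read 2934, 2861 and 3769. ITGB5 and IBSP complete that group.

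Regulators of transcription gave 7 genes, namely HIF1A, NR3C1, ID2, CTBP2, MORF4L1, MORF4L2 and JMJD1C. HIF1A, the oxygen-regulated subunit of the hypoxia factor, read 3684, 3332 and 4347. NR3C1, the glucocorticoid receptor, read 2474, 2636 and 4721, and ID2, an inhibitor of helix-loop-helix factors, read 5008, 2726 and 4771. NR3C1 was high on replicate 4 and ID2 low on replicate 3.

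RAB1A, which moves vesicles from endoplasmic reticulum to Golgi, read 8044, 8287 and 9864, and RAP1A, RAP1B, RAN and RANBP9 lay lower. Messenger RNA regulators gave 6, with ZFP36L1, which promotes decay of AU-rich transcripts, at 5120, 5183 and 6699. SRRM2, RBM39, PCBP1, MEX3C and PDCD4 were the others. TXN, thioredoxin, a disulphide reductase, read 12201, 11921 and 8723, and the amino acid transporter SLC38A2 read 5766, 4140 and 3956. TXN and SLC38A2 were both lowest on replicate 4.

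Several bright members carried names that belong to other tissues, and ITGB5 is given with them for its far dimmer other probe set. POMC, the pituitary hormone precursor, read 11895, 12268 and 13672, and IBSP, bone sialoprotein, read 3003, 2966 and 3288. ITGB5, an integrin subunit, read 12011, 12735 and 13383. The other probe sets of these genes were not members. For CSN2 they read 160, 189 and 178, and 23.7, 22.7 and 18.5. The other POMC probe set read 23.5, 60.1 and 96.1, that of CDK5R1 read 25.1, 20.4 and 16.2, and that of IBSP read 103, 90.9 and 111. The other ITGB5 probe set lay at 232, 277 and 463. The member probe set of CSN2 ends in _x_at, and those of CDK5R1 in _x_at or _a_at, endings that Affymetrix gives to probe sets that can match more than a single transcript. Whether these bright probe sets read the named gene was not tested.

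Of the 142 genes, 55 had more than 1 probe set, with 145 probe sets between them, of which 65 were members and 80 were not. Of these 80, 22 lay below the median of every array, 44 lay above it on every array, and 10 lay above the 95th percentile on every array. The median percentile of the 80 was 66.0. Probe sets with A1 in their ID were 29 of these 80 and 6 of the 65 members. Members were chosen for their brightness, so a dimmer second probe set is fixed by the choice, and levels of different probe sets cannot be set against each other. EEF1A1 was read at 57.7, 54.2 and 11.9 by its other non-control probe set, and DDX5 at 5.81, 2.16 and 2.30. CLTC, the clathrin heavy chain, read 3929, 5451 and 5543 by its member and 1929, 2328 and 2203 by its other probe set. The other HNRNPK probe set read 1535, 1178 and 2043.

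**Figure D3:**
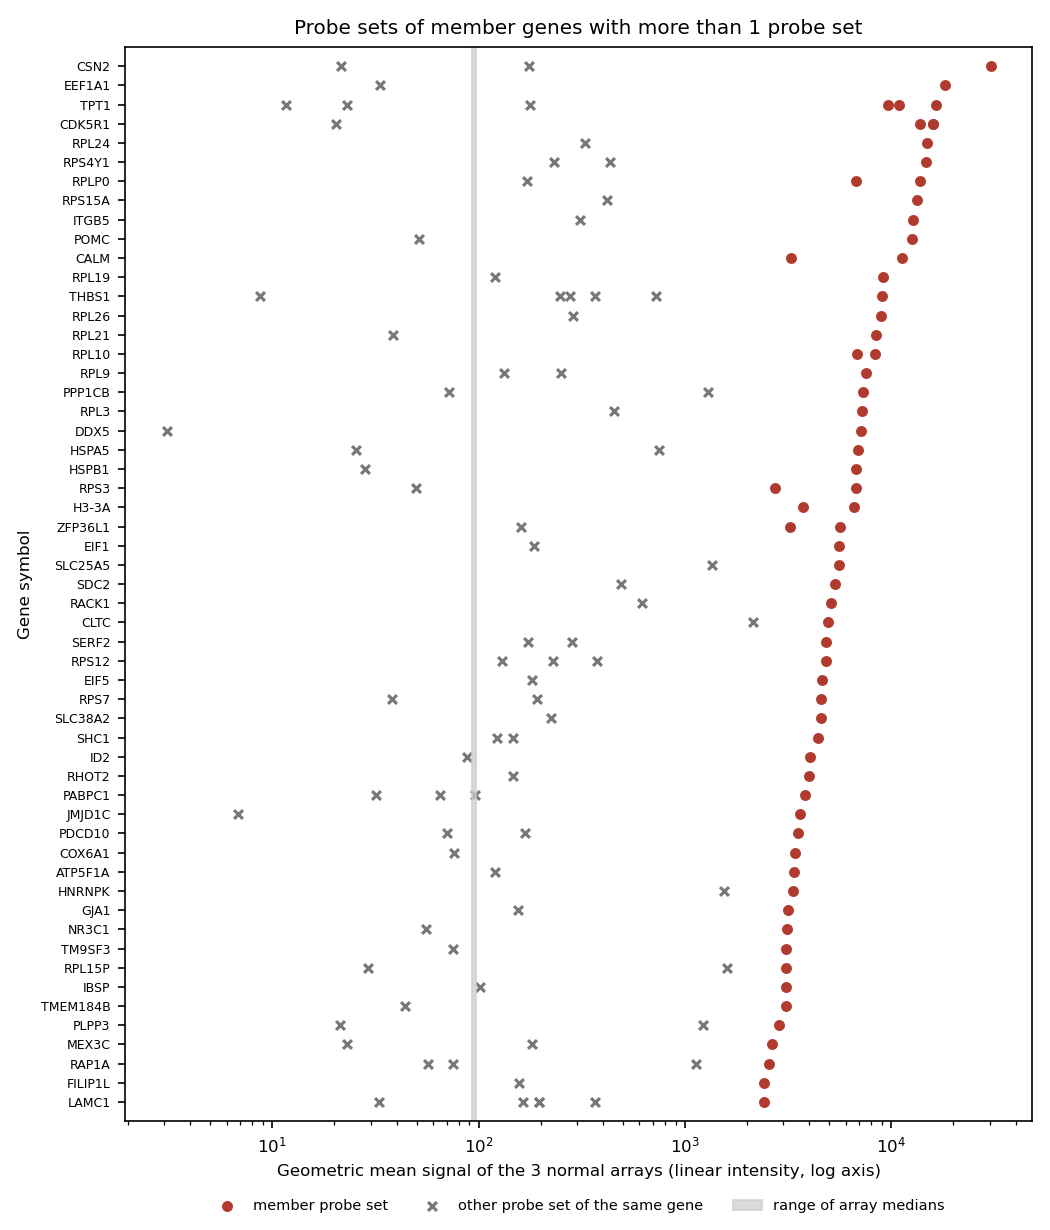
Geometric mean signal over the 3 normal arrays (horizontal log axis, linear intensity) of every probe set of the 55 member genes with more than 1. Red points are members, grey crosses the 80 other probe sets and the grey band the range of array medians; 44 of the 80 lie above the median of every array and 22 below it. Red points lie to the right by the choice of members.

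The members also differed in how the array names and annotates them, which the rule did not use. A single symbol was given for 152 members, or 79.6%, against 55.3% of all non-control probe sets. Several symbols were given for 2 members and none for 37. Probe sets with A1 in their ID were 8.38% of members and 39.3% of all, and those ending in _s_at, _x_at or _a_at were 37 of the 191. The brightest member with no symbol read 16570, 15959 and 19736. Another read 4450, 4333 and 4016, and the probe set annotated KRT8 that shares its cluster number read 242, 303 and 231. Of the 37, 6 shared a cluster number with a named probe set.

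Of 241 probe sets above the 99th percentile on each array, replicates 2 and 3 shared 214, or 88.8% of either list, replicates 2 and 4 shared 204, and replicates 3 and 4 shared 203. In all, 293 passed on at least 1 array, 48 of them on 2 arrays and 54 on 1. Over all non-control probe sets the Pearson correlation of log2 signals was 0.909, 0.898 and 0.897 for these pairs of arrays, across probe sets that share array, scaling and probe brightness.

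Most members varied little between the arrays. The ratio of the highest to the lowest array had a median of 1.22 over the members, with quartiles of 1.12 and 1.36, and 166 of the 191, or 86.9%, lay within 1.5-fold. The 9623 non-members above the median of every array had a median ratio of 1.34, though members could not fall below the rule and were brighter. Among the steadiest were RPS20 at 3717, 3654 and 3643, RPL17 at 3636, 3716 and 3638, and CALM, annotated as the calcium sensor calmodulin, at 11487, 11151 and 11337 (mean 11325 ± 168 SD, n = 3). RPL9, PSMA7 and LOC286807 followed, each within 1.04-fold.

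The ratio passed 2-fold for 5 members. HSPB1 had the widest, 2.34, through its low value on replicate 4. SHC1, an adaptor of receptor tyrosine kinases, read 3024, 4329 and 6602, a ratio of 2.18, and its other probe sets read at most 185 on any array. RPL12 read 3638, 7598 and 7541, a ratio of 2.09 from a low value on replicate 2. RPL15P read 2293, 2739 and 4679, and PLPP3, a lipid phosphatase of the cell surface, read 2300, 2238 and 4521. TM9SF3, at 2385, 2638 and 4700, and ASPN came next, at 1.97 and 1.93. After quantile normalization, which gives the arrays the same distribution, HSPB1 and RPL12 were the 2 members over 2-fold apart, at 2.61 and 2.08. Without replicate 4 the members were chosen again, 214 in all, and 1 of them was over 2-fold apart. The count was 6 without replicate 2 and 5 without replicate 3, and a ratio over 2 arrays is smaller by construction.

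The direction of the spread leaned to replicate 4. This array was the highest for 131 of the 191 members on the deposited scale, replicate 2 for 38 and replicate 3 for 22. After quantile normalization, replicate 4 was the highest for 47, replicate 2 for 88 and replicate 3 for 56. With each array divided by its median, the counts in that order were 154, 26 and 11. The lean therefore depends on the scaling, and quantile normalization makes the bright ends of the arrays equal. The 99th percentile and the spike-in controls were also highest on replicate 4. The 99th percentile and the 3′ BioD probe set were lowest on replicate 3. The 5′ BioD probe set (5090, 5310 and 6864) and the spike-ins BioC (1040, 1121 and 1305) and BioB (347, 479 and 562) were lowest on replicate 2. Their part in the lean was not tested.

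Among the members nearest the rule were SEC61B, at 1.00 times the percentile on its dimmest array, and LAMC1. Nearest outside were HNRNPUL1 at 2137, 2044 and 2838, DHX15, a splicing helicase, at 2536, 2185 and 2483, and HMGB1, a chromatin protein, at 2698, 2164 and 2450. Of the 48 probe sets above on 2 arrays, 12 missed on replicate 2, 13 on replicate 3 and 23 on replicate 4. The major fibrillar collagens were among those that missed on replicate 2. COL1A1 read 1487, 3954 and 8865, COL1A2 read 1452, 4063 and 10278, and COL3A1 read 1349, 2821 and 3539. FBN1, the microfibril protein fibrillin, also missed there, at 1138, 3133 and 3008, and DCN, decorin, missed on replicate 3, at 2365, 1685 and 4898. CCN2, a matricellular growth factor target, passed on replicate 4 alone, at 1902, 1375 and 10649. SFN, the epithelial 14-3-3 protein, missed on replicate 4, at 2151, 2238 and 1650. These genes were named after their values were seen.

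The label of lamellar tissue was set beside cell type markers. Of all 9155 named genes, 5093 lay above the median of every array by their brightest probe set. A marker count near that share says little about a cell type. Of 9 fibroblast markers, all with a probe set, 8 lay above the median of every array and 5 above the 95th percentile of every array. Of 5 basal keratinocyte markers with a probe set, 4 lay above the median of every array. KRT14, the partner of KRT5 in basal cells, read 609, 397 and 143, and KRT5 read 214, 266 and 224. COL17A1, a hemidesmosome collagen, read 335, 336 and 138, and ITGB4 read 276, 190 and 76.5. KRT15, another basal keratin, read 200, 187 and 196. Replicate 4 was the lowest for KRT14, COL17A1 and ITGB4, while KRT5 was lowest on replicate 2 and KRT15 on replicate 3. The summed signal of the basal keratinocyte markers was 1634, 1377 and 777, and that of the fibroblast markers 9328, 14656 and 31502. COL1A1, at 8865, and COL1A2, at 10278, were the largest parts of the fibroblast sum on replicate 4. Not every fibroblast marker rose with the sum. PDGFRA read 279, 210 and 236, PDGFRB read 440, 413 and 476, and MFAP5 read 376, 357 and 425.

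Of 18 keratin genes with a probe set 12 lay above the median of every array, against 5093 of 9155 named genes. The count above the 95th percentile of every array was 0. Their highest percentile was 95.5, for KRT14 on replicate 2. These counts rest on probe sets with a keratin symbol, and KRT8 was read at 242, 303 and 231. The member without a symbol that shares its cluster number, at 4450, 4333 and 4016, was not counted. Whether it reads a keratin was not tested. KRT17, a keratin of appendages and stressed epidermis, read 387, 503 and 330, and KRT10, of suprabasal cells, read 320, 251 and 355. KRT1, KRT6A, KRT16, KRT42 and KRT124 had no probe set with that single symbol, so part of the hoof keratins could not be read here. Of 5 suprabasal markers with a probe set 4 lay above the median of every array and 1, DSC1, below it, at 1.28, 1.64 and 5.10. SFN, at the 98.5 percentile of replicate 4 and higher on the others, was the brightest of the 5. DSG1, a desmosomal cadherin, read 296, 328 and 169.

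Markers of other cell types were read the same way, beside the same 5093 of 9155 named genes above the median of every array. Of 7 cartilage or bone markers 5 lay above the median of every array and 2, IBSP and COMP, above the 95th percentile of every array, with COMP, a matrix protein of cartilage and tendon, at 1125, 974 and 1265. SPP1 lay below the median of every array, at 75.1, 54.9 and 83.3, and BGLAP read 38.6, 24.0 and 111. The median percentile of the 7 was 83.8, 90.5 and 89.0, and that of the basal keratinocyte markers 83.2, 82.1 and 63.2. Levels of different probe sets cannot be set against each other, so these medians do not rank the cell types. Whether the bright IBSP probe set reads that gene was not tested. Of 5 Schwann cell or nerve markers 5 lay above the median of every array, at median percentiles of 79.6, 66.4 and 81.9. Of 8 T cell markers 8 lay above the median of every array and 0 above the 95th percentile, with summed signals of 1560, 1735 and 1515. Of 8 endothelial markers 1, PECAM1, lay above the median of every array, at 270, 220 and 288. Of 5 erythrocyte markers 4 lay below the median of every array, with HBB, beta-globin, at 37.3, 32.9 and 29.2. The neutrophil calgranulin S100A8 read 429, 133 and 110, and S100A9 read 190, 35.0 and 43.0, both highest on replicate 2. ELANE was also highest there, S100A12, LTF and FCGR3A were highest on replicate 3 and MPO on replicate 4, so the 7 neutrophil markers did not move together. The 7 smooth muscle or pericyte markers were split, with 3 above the median of every array and 3 below it. TAGLN, at 1767, 2056 and 2322, and ACTA2, at 879, 1035 and 1090, were above the 95th percentile of every array. The 3 below were MYH11, SMTN and RGS5, and MYH11, a defining marker, read 35.5, 15.8 and 14.4.

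**Figure D4:**
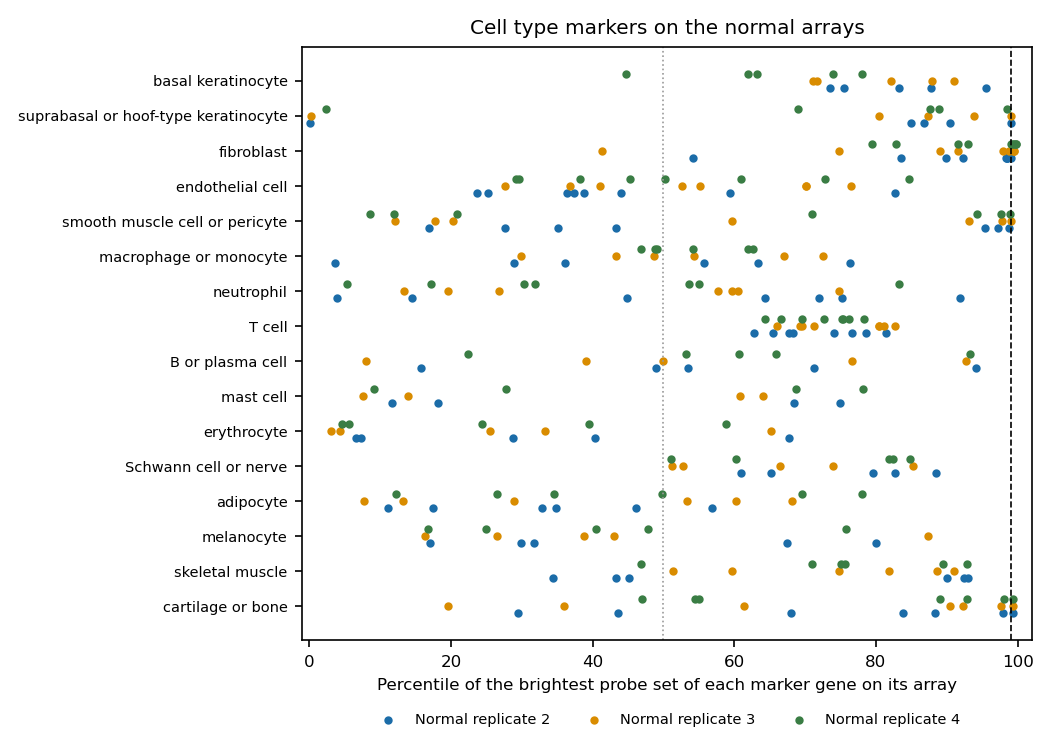
Percentile of the brightest probe set of each cell type marker among the non-control probe sets of its array (horizontal axis), for normal replicates 2, 3 and 4. Dotted and dashed lines mark the 50th and 99th percentiles; fibroblast markers cluster at the right, with 5 of 9 above the 95th percentile of every array.

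To see whether groups of genes moved together between the normal arrays, each list was also read over all its genes above the median of every array, members or not. The dermal matrix list, 27 genes, had median log2 deviations from the mean of the arrays of -0.21 on replicate 2, -0.019 on replicate 3 and 0.40 on replicate 4, and 18 of its genes were highest on replicate 4. After quantile normalization it lay at -0.20, 0.044 and 0.28. POSTN, a matrix protein of fibroblasts, read 108, 269 and 739. The immediate early list, 11 genes, lay at -0.059, -0.15 and 0.25. The cornified envelope list, 6 genes, ran the other way, at 0.17, 0.11 and -0.29, with 0 highest on replicate 4, and 12 keratins lay at -0.033, 0.12 and -0.11. Over the 5093 named genes above the median the deviations were 0.015, 0.0022 and -0.012. In bulk tissue more cells of a type and more RNA per cell cannot be told apart, and the share of dermis in each sample was not tested. With 3 arrays of 1 group these deviations have no test.

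**Figure D5:**
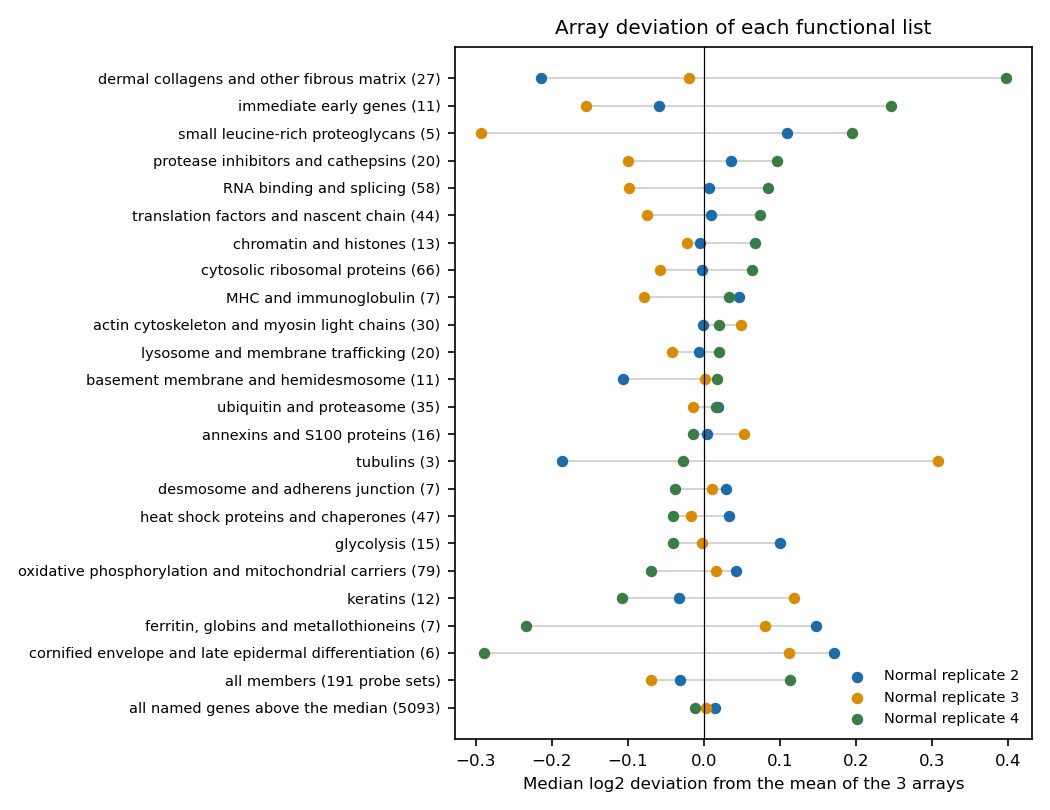
Median log2 deviation from the mean of the 3 normal arrays (horizontal axis) for each functional list, with the number of genes in brackets. Points are the arrays; the dermal matrix list spans -0.21 on replicate 2 to 0.40 on replicate 4, and the cornified envelope list 0.17 to -0.29. On replicate 4 the deposited scale puts all members at 0.11, which turns to -0.039 after quantile normalization and 0.15 after division by the array median.

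Ribosomal proteins, the largest block of members, moved little between arrays when all 66 bright genes of the list were read, at -0.0023, -0.058 and 0.063, and quantile normalization turned the last to -0.049. The 79 oxidative phosphorylation genes lay at 0.043, 0.016 and -0.069, and 15 of them were highest on replicate 4. Of 15 glycolytic genes 11 were highest on replicate 2, with deviations of 0.10, -0.0024 and -0.041. ACTB, beta-actin, often taken as a reference gene, read 1955, 249 and 807 by its 1 probe set, a 7.85-fold range, while GAPDH stayed within 1.06-fold. The 3′ to 5′ ratio of the actin control, 6.25, 2.08 and 4.24, had the same order over the arrays. Its part in the ACTB range was not tested. ACTG1, gamma-actin, read 1222, 1153 and 907, a 1.35-fold range.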

How the data were processed

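RNA from normal lamellar tissue was converted to biotin-labelled cRNA by oligo(dT) priming in 1 amplification cycle and hybridised to bovine GeneChips, per the labels' protocols. The deposited values are linear intensities with a nearly equal trimmed mean on the normal arrays. GCRMA is named in the submitters' processing notes, with its version not given, but the value distributions differ between arrays, which that method would equalise, so the step is open. Detection calls were not used here.

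Symbols are bovine, from GEO's platform annotation. Of 142 member symbols 138 matched horse RefSeq (TB-T2T), used for this count only; LOC286807, RPS4Y1, MYL12A and RPL15P did not.

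Of 24128 probe sets, 112 controls were left out. Percentiles, ratios and medians were computed with Python 3.11.15 (numpy 2.4.6, pandas 2.3.3), and the steps were tested on simulated data. A gene is represented by its probe set of highest geometric mean. No pair of arrays shared identical values.

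Values by array are given for the 10 members brightest on their dimmest array, up to 4 per list, the widest, the steadiest and those nearest the rule; others were chosen after their values were seen. Of the 3 members nearest the rule, 1 is not reported here. The members, 22 functional lists and 16 marker lists were chosen with earlier results of these data known.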

Additional observations from a re-analysis of the deposited data

How the results depend on the processing

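The rule ranks probe sets within an array, so scaling an array cannot change the members. With the 98th percentile, 404 probe sets and 301 genes passed, 149 of them in the lists, and 23 were over 2-fold apart. With signals over 2 times the 99th percentile, 91 probe sets and 67 genes passed, 52 of them in the lists, 0 were over 2-fold apart and the median ratio was 1.16. Ribosomal genes were 49 and 33 of these, against 42. With 1 array left out, members ranged from 203 to 214, genes from 151 to 165, genes in the lists from 96 to 101, the median ratio from 1.08 to 1.16 and members over 2-fold apart from 1, without normal replicate 4, to 6; a ratio over 2 arrays is smaller by construction. With the geometric mean in place of each array, 241 probe sets passed, 18 over 2-fold apart. Quantile normalization gave a median ratio of 1.17 and 2 members over 2-fold apart, and division by the array median gave 8. Of 22 lists, 10 were highest on replicate 4, against 6 after quantile normalization and 13 after division by the array median. Counting controls in the percentile (182 members) and leaving out _s_at, _x_at and _a_at probe sets (181) kept every count within 1.5 times. No paired analysis was possible because no result comes from a test between groups. Without detection calls, a dim signal cannot be told from background.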
